A study of Bos taurus with 15 samples.

Results

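The newborn (NB) salivary gland was covered by 1 single-cell RNA library from Holstein dairy cattle, and its profile was set against those of the other 10 NB libraries, 1 each from the liver, the rectum, colon and cecum, the ileum, jejunum and duodenum, and the abomasum, omasum and reticulum of the stomach. Barcodes with 500 to 4000 detected genes and under 50000 UMIs (unique molecular identifiers, each standing for a captured mRNA molecule) were taken, with no further selection. This kept 2698 of the 3130 barcodes of the salivary gland library, of 91903 kept in the 11 NB libraries. The UMIs of the kept barcodes were summed to 1 profile per library and scaled to the library's total (CPM, counts per 1000000 UMIs).

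The study built a cell atlas of cattle digestive tissues at the newborn and adult stages with droplet-based sequencing of transcript ends. The salivary gland sample was a piece of parotid gland from which blood and fat had been removed. It was digested with collagenase II, dispase and DNase I and treated with red blood cell lysis solution. The NB stomach and gut tissues were stripped of muscle, incubated with EDTA and trypsin and then with other enzyme mixes, and the NB liver was digested with collagenase I, papain and DNase I. The tissues came from 3 NB calves, for which an exact age is not given in the sources used here, and the labels do not say which calf gave which library. Tissue, calf and dissociation therefore cannot be told apart, and with 1 library per tissue no difference could be tested against replicates. All intervals given here are 95% intervals, exact Poisson for levels and exact binomial for shares, and they cover counting error only.

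The parotid gland is a serous gland. Its acinar cells secrete proteins and fluid, its duct cells change the electrolytes of that fluid, and myoepithelial cells around the acini squeeze it out. In ruminants it delivers large volumes of alkaline, phosphate-rich saliva that buffers the forestomach. Fibroblasts, vessels and scattered immune cells make up the stroma between the lobules, and a parotid lymph node lies against the gland in cattle.

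The kept salivary gland barcodes held 16415310 UMIs, against 32711718 in the colon to 105169819 in the omasum. The median salivary gland barcode had 5345.5 UMIs and 1570 genes, inside the range of median UMIs of the others (4491.5 to 9138.5). Of its barcodes, 62 were also kept in at least 1 of the other libraries, with 2 to 12 shared per library. Doublet scoring marked 58 barcodes, which were kept.

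The library labelled salivary gland was made up mostly of lymphocytes. Whether lymph node tissue was part of the sample was not tested, so the T and B cell values given here are those of the library. Clustering gave 19 clusters, named from lineage marker lists. The T cell-like clusters held 1664 barcodes, which was 61.7% of the library (59.8 to 63.5%), and the B cell-like cluster held 557 barcodes, or 20.6% (19.1 to 22.2%). The macrophage-like cluster held 91 barcodes (3.37%) and the fibroblast-like cluster 73 (2.71%). The epithelial-like cluster held only 50 barcodes, or 1.85% (1.38 to 2.44%). The blood endothelial-like cluster held 30 barcodes (1.11%) and the neutrophil and monocyte-like cluster 20 (0.741%). No blood endothelial-like cluster was named at a clustering resolution of 0.5 or 2, and no epithelial-like one at 0.5. The other 213 barcodes (7.89%) stayed unnamed. No cluster was named for pericytes, lymphatic endothelium, Schwann cells, plasma cells or mast cells.

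**Figure D1:**
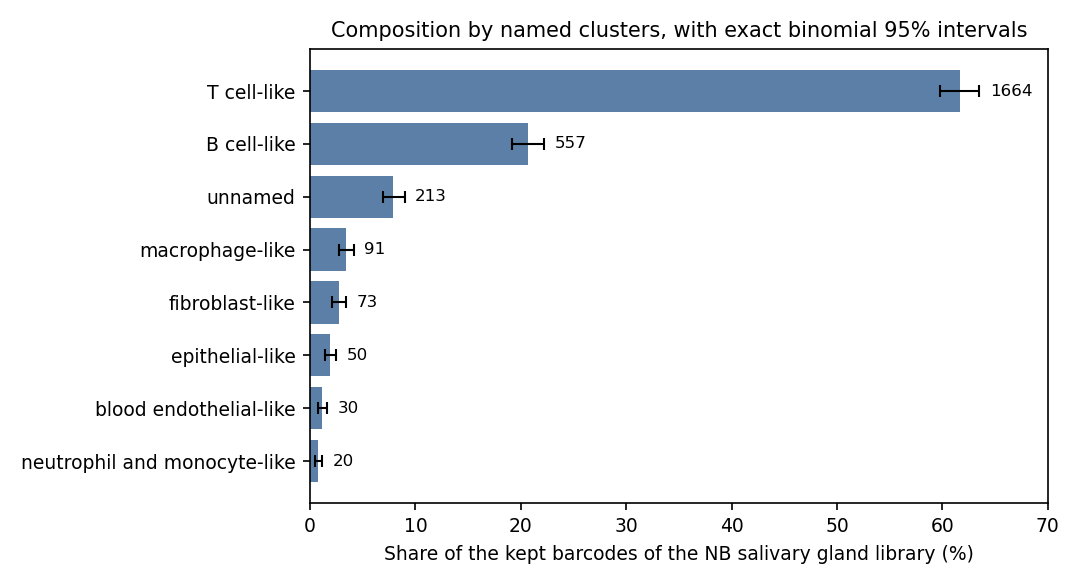
Share of the 2698 kept barcodes of the NB salivary gland library in each group of named clusters (horizontal bars from 0, in %), with exact binomial 95% intervals and the number of barcodes beside each bar. T cell-like clusters reach 61.7% and the epithelial-like cluster 1.85%.

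Markers were also counted per barcode, without use of the clusters. The clusters took their names from this same count, so its shares are not an independent check of the cluster shares. Barcodes with at least 3 markers of 1 list, and at least 2 more than of any other list, were assigned to that lineage and are called gated below. T-gated barcodes made up 57.6% of the salivary gland library (1554 barcodes) and at most 15.9% of any other NB library, the highest being the liver. B-gated barcodes made up 18.2% (491 barcodes), close to the 18.1% of the colon and below the 44.4% of the ileum. Epithelial-gated barcodes made up 1.11% (30 barcodes; 0.751 to 1.58%), the lowest share of the 11 libraries, beside 1.27% in the liver and up to 47.6% in the abomasum. Pericyte and smooth muscle-gated barcodes numbered 5, plasma cell-gated 4 and mast cell-gated 2. None was gated as lymphatic endothelial or Schwann cell, which allows up to 0.137% of barcodes passing these gates by the exact interval. This is no limit on the share of the cells themselves. The blood endothelial-like cluster held the lymphatic endothelial list at 2964 CPM.

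After each barcode was thinned to 1000 UMIs, which left out 15 salivary gland barcodes, *CD3E*, a subunit of the T cell receptor complex, was detected in 47.3% of barcodes (45.4 to 49.2%) and in 68.8% before thinning. The highest other library was the liver with 26.8%. Such shares can hold free RNA, whose part was not tested. Before thinning, 97.0% of T cell-like barcodes had a *CD3E* UMI at a median of 5982 UMIs, and so did 20.5% of fibroblast-like barcodes at a median of 6890. *EPCAM*, an adhesion molecule of epithelial cells, was detected in 0.932% of thinned barcodes (0.604 to 1.37%) and in 2.78% before thinning, against 0.933 to 30.1% of thinned barcodes in the other libraries. The unthinned *EPCAM* share was 56.0% in epithelial-like barcodes at a median of 4506.5 UMIs and 1.56% in T cell-like barcodes.

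Marker lists were also compared by their summed level. T cell genes summed to 2252 CPM (2229 to 2275) in the salivary gland and to 18.8 to 510 CPM in the other 10 libraries. All 12 members of that list that reached 20 CPM in the salivary gland lay above each of the other libraries, where 25.5% of all 4762 genes at that level did. The median log2 ratio of the list to the median of the other libraries was 3.56, beside -0.12 for all genes. *CD3E* stood at 903 CPM against at most 242 in the liver, *CD3D* at 174 against at most 46.9 in the rectum, and *CD8A* at 75.2 against at most 19.5 in the colon. The B cell list summed to 692 CPM, second to the ileum at 1575 CPM and beside 676 CPM in the colon. The list of WC1 and gamma delta T cells, a lineage abundant in young ruminants, summed to 107 CPM against at most 64.1 in the liver. Of its 5 measured members only 1 reached 20 CPM. Outside the B-gated barcodes *GATA3* was the largest part at 85.9 CPM. The *WC1* entries stood at 23.1 and 4.67 CPM there, *CD163L1* at 10.0 and *SOX13* at 1.44 CPM.

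Lists of the gland's own structural cells were low. The myoepithelial list summed to 20.7 CPM, the pericyte and smooth muscle list to 18.9 CPM and the blood endothelial list to 49.1 CPM, each the lowest of the 11 libraries. Their lowest values elsewhere were 41.2, 51.9 and 82.8 CPM. The acinar list stood at 63.7 CPM and the duct list at 173 CPM, both ranking 9 of 11. No acinar member and 3 duct members reached 20 CPM, and none of these 3 lay above all other libraries. Part of these sums came from lymphocytes. Of the UMIs of the duct member *KIT*, 410 of 459 were in T cell-like barcodes. The myoepithelial member *KRT17* had 147 UMIs in the B cell-like cluster and 1 in the epithelial-like one. By contrast, 845 of the 992 UMIs of the duct member *KRT19* were in the epithelial-like cluster. In bulk sums of this kind, fewer cells of a type and less RNA per cell cannot be told apart. The fibroblast list differed from these at 4179 CPM, which ranked 3 of 11 below up to 8187 CPM in the rectum. Fibroblast-gated barcodes were few, however, at 2.74% of the library. Only the reticulum at 1.86% and the liver at 0.173% had a lower share, and the rectum had 24.4%.

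**Figure D2:**
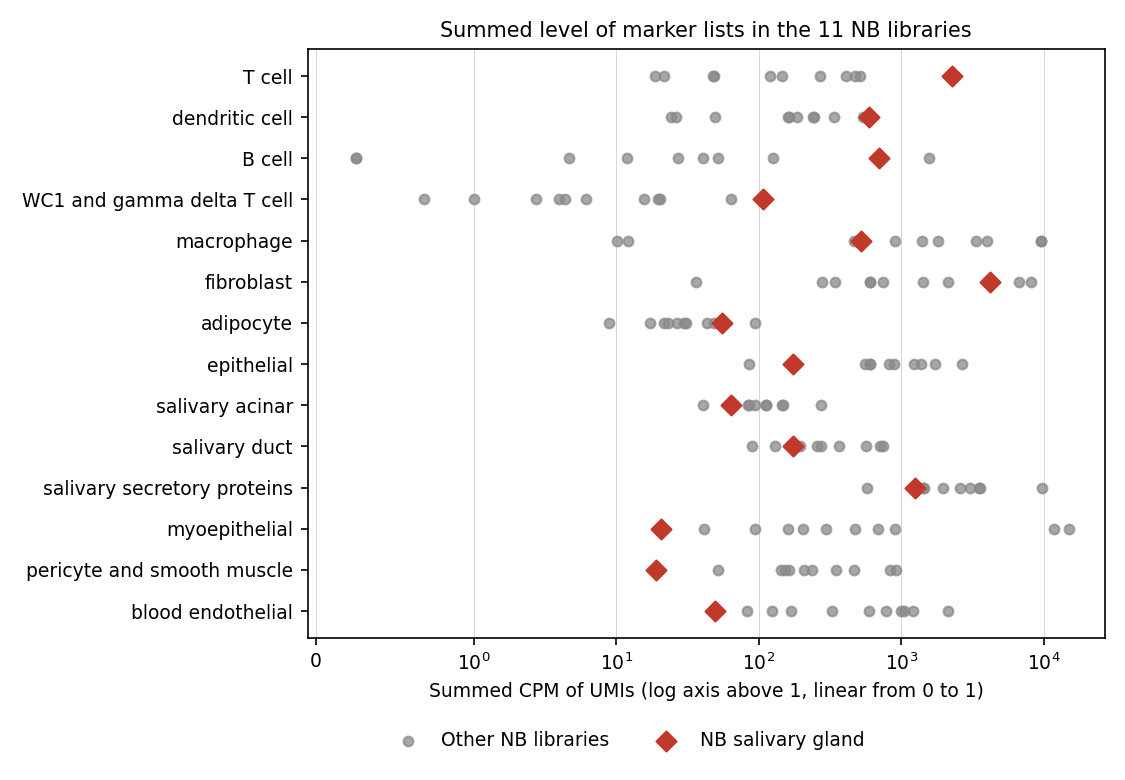
Summed CPM of UMIs of 14 marker lists (horizontal axis, logarithmic above 1 and linear from 0 to 1) in the NB salivary gland (red diamonds) and the other 10 NB libraries (grey points). The T cell list lies to the right of all other libraries at 2252 CPM, and the myoepithelial list to the left of all others at 20.7 CPM.

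Genes were counted as higher in the salivary gland at 20 CPM or more and a log2 ratio of at least 2 to the highest other library, with 5 CPM added to both. This held for 22 of 4762 genes (0.462%), of which 13 have a symbol in the files. The named ones were secretory, epithelial or lymphocyte transcripts. As a description of the threshold, *CD4* at a log2 ratio of 2.04 was the last named gene inside it, and *TCF7* at 1.98 and *THEMIS* at 1.93 lay just outside.

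*BPIFB1*, a secreted protein of the family of lipid-binding antimicrobial BPI-fold proteins, had the largest ratio of the named genes. It stood at 302 CPM (294 to 311) in the salivary gland, and at 0 CPM in the liver, 0.818 in the duodenum, 0.555 in the jejunum, 0.523 in the omasum, 0.301 in the abomasum and between 0.0178 and 0.214 in the other 5. The salivary gland was the only library above 1 CPM, and the log2 ratio to the duodenum was 5.72. The epithelial-like cluster carried 95.8% of its UMIs and 1.83% of all UMIs of the library. Within that cluster *BPIFB1* reached 15858 CPM, and 35 of the 50 barcodes had a UMI, beside 4.75% of T cell-like barcodes, where its level was 9.10 CPM.

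The transcript ENSBTAG00000049572, which has no symbol in the files, stood at 287 CPM in the salivary gland and at 0 in all others but the jejunum, with 0.0113 CPM. A second one, ENSBTAG00000025952, stood at 347 CPM against at most 7.75 CPM in the rectum. A single barcode held 39.3% of the UMIs of ENSBTAG00000025952 and 13.1% of those of ENSBTAG00000049572. *MSMB*, a small secreted protein, passed the threshold at 33.3 CPM, but 525 of its 547 UMIs came from 1 barcode, without which it stood at 1.34 CPM. *DCXR*, a carbonyl reductase, is a symbol that the files hold more than once. Its entry ENSBTAG00000047043 stood at 20.5 CPM against at most 0.323 CPM in the omasum, with 24.9% of its UMIs in 1 barcode. Without that barcode it stood at 15.4 CPM, under the minimum of 20 CPM.

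The lymphocyte transcripts were spread over many barcodes. *CCR7*, the receptor that guides naive lymphocytes and mature dendritic cells into lymph nodes, stood at 429 CPM (419 to 439), against 62.5 in the rectum, 56.4 in the ileum, 51.0 in the colon, 32.8 in the cecum and at most 6.12 in the others. It had UMIs in 1647 barcodes. *LEF1*, a transcription factor of naive and developing T cells, stood at 86.8 CPM against at most 8.50 in the colon, at a log2 ratio of 2.77. *SATB1*, a chromatin organiser of T cells, stood at 133 CPM against at most 21.4 in the colon.

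Signalling genes of lymphocytes followed. *MALT1*, a protease that links antigen receptors to NF-kappaB, stood at 145 CPM against at most 30.0 in the ileum. *GIMAP5*, a GTPase needed for lymphocyte survival, stood at 285 CPM against at most 65.2 in the liver. Other named genes that counted as higher were *CD4* at 113 CPM, *VSTM2L* at 50.1, *IFITM10* at 42.8 and *CD3G* at 39.8. In each of these genes the largest share of UMIs in a single barcode was at most 1.09%.

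Genes counted as lower had at least 20 CPM in all other libraries and a log2 ratio of at most -2 to the lowest of them. Only 4 of 2561 genes (0.156%) met this. *HSPA1A*, a stress-induced chaperone, stood at 49.6 CPM (46.2 to 53.1) in the salivary gland, and between 409 CPM in the omasum and 10491 in the cecum elsewhere, with a median of 3004. *FABP5*, a fatty acid-binding protein, stood at 23.1 CPM against 140 to 2000. *ID1*, a target of BMP signalling, stood at 16.4 CPM against 101 to 552, and *CHCHD10*, a mitochondrial protein, at 10.7 CPM against 59.2 to 852. By this rule the salivary gland lay below every other library in all 4. With no upper limit on genes and UMIs the log2 ratios of *ID1* and *CHCHD10* were -1.92 and -1.76, short of the threshold.

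The salivary secretory list had 39 symbols, of which 21 were found in the files. These summed to 1242 CPM (1225 to 1259), ranking 10 of 11, with 571 CPM in the abomasum below it and 9764 CPM in the cecum at the top. Transcripts without a symbol are not part of this sum. Most of its sum came from genes that other tissues also use. *CST3*, a protease inhibitor, gave 9252 of the 20386 UMIs, and both *CST3* and *LYZ* had their highest levels in an unnamed cluster led by *LYZ*, *CFD* and *CST3*, at 9102 and 2233 CPM. Only *BPIFB1* of the list counted as higher.

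Several saliva genes were nevertheless at their highest in the salivary gland library. *PIP*, a saliva protein that binds bacteria and aquaporin, had 248 UMIs (15.1 CPM) and reached at most 0.0176 CPM in the other libraries. *LTF*, lactoferrin, stood at 46.9 CPM against at most 15.6 in the abomasum. Without the barcode that held most of their UMIs, *PIP* and *LTF* stood at 10.1 and 37.0 CPM, still the highest. *AZGP1* stood at 10.8 CPM and *DNASE1*, a secreted nuclease, at 17.7 CPM, against at most 9.39 in the duodenum and 12 in the ileum. A single barcode held 23.0% of the UMIs of *AZGP1* and 41.4% of those of *DNASE1*, and without it they stood at 8.35 and 10.4 CPM, below those libraries. *BPIFA2C*, of the parotid secretory protein family, stood at 167 CPM, beside 176 CPM in the omasum and 75.2 in the reticulum and at most 1.36 in the rest. A single barcode held 30.0% of its UMIs, and without it *BPIFA2C* stood at 117 CPM. *LPO*, lactoperoxidase, was at 5.06 CPM, below its 6.57 CPM in the colon. *AQP5*, the acinar water channel, had 21 UMIs in all, each in the epithelial-like cluster, and at 1.28 CPM stood below the reticulum at 3.89 CPM.

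**Figure D3:**
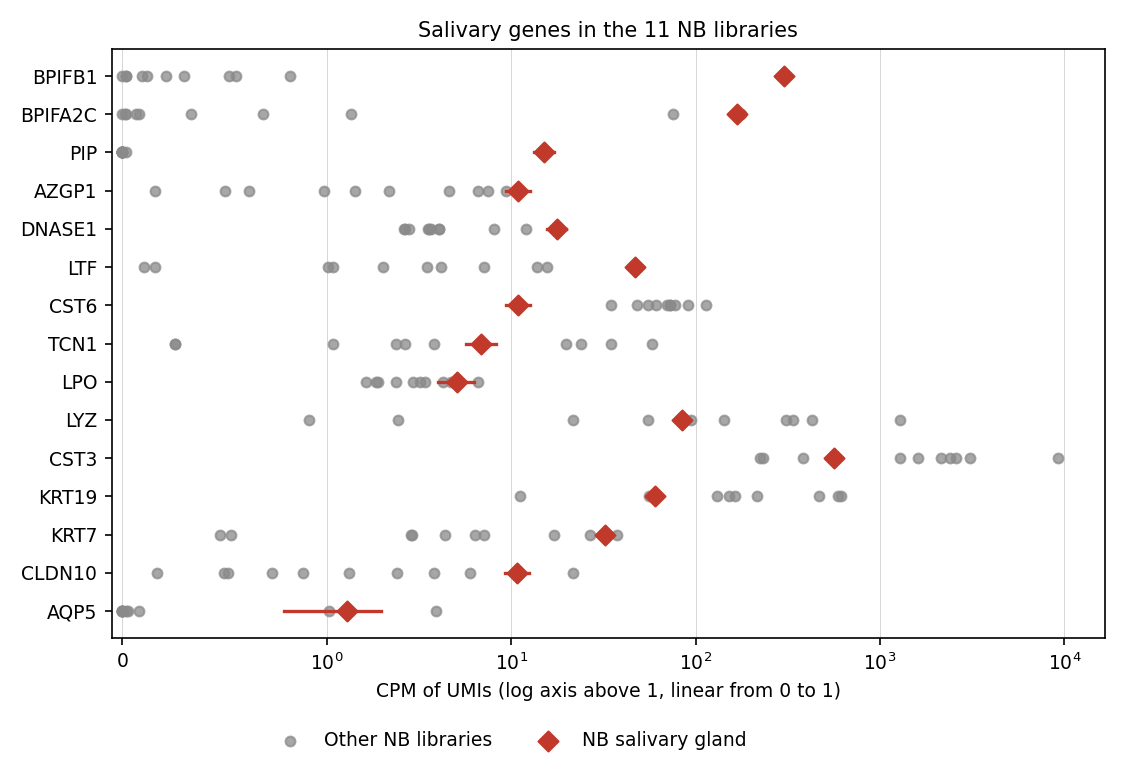
CPM of UMIs of 15 genes of saliva, acinar and duct cells (horizontal axis, logarithmic above 1 and linear from 0 to 1) in the NB salivary gland (red diamonds with exact Poisson 95% intervals) and the other 10 NB libraries (grey points). *BPIFB1* at 302 CPM and *PIP* at 15.1 CPM stand apart from all other libraries, while *KRT19* at 60.4 CPM lies among them.

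The 50 barcodes of the epithelial-like cluster were not of 1 kind. The following split was chosen after the values were seen and is a description of these barcodes, at 10 UMIs of *BPIFB1* or *BPIFA2C* and at 5 UMIs of the keratins *KRT19* and *KRT7* together. There were 15 barcodes with the secretory transcripts only, 8 with both, 16 with the keratins only and 11 with neither. The levels of *BPIFB1*, *BPIFA2C*, *KRT19* and *KRT7* in these groups follow in part from the split itself. Its limits are in UMIs per barcode, and depth differed between the groups.

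The secretory-only barcodes had a low median of 2585 UMIs. They held *BPIFA2C* at 33294 CPM, *BPIFB1* at 14446 CPM, *PIP* at 1775 CPM and the acinar tight junction gene *CLDN10* at 1541 CPM, with *CLDN10* in 15 of 15. *KRT19* was at 96.3 CPM there. *CA2* and *SLC4A4*, a carbonic anhydrase and a bicarbonate cotransporter of saliva formation, stood at 592 and 385 CPM.

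The 8 barcodes with both had a median of 11560 UMIs, *BPIFB1* at 38523 CPM, *LTF* at 6657 CPM and *AZGP1* at 1522 CPM, and *BPIFA2C* at 2131 CPM in only 2 of them. *SOX10*, a transcription factor of acinar and progenitor cells, had UMIs in 6 of these 8 and in 5 of the 15 secretory-only barcodes, and in none of the keratin-only ones.

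The keratin-only barcodes held *KRT19* at 6478 CPM, *KRT7* at 2824 CPM, *DCXR* at 3006 CPM and *ATP6V1B1*, a proton pump subunit, at 319 CPM in 11 of 16. *BPIFB1* was at 34.2 CPM there, *BPIFA2C*, *PIP*, *CLDN10* and *AQP5* had no UMI, and *LTF* had 2. *WFDC2*, a protease inhibitor of glandular epithelia, was high in all 3 groups, from 12102 to 18188 CPM. The 11 barcodes with neither had *PTPRC*, a marker of blood cells, at 658 CPM and *EPCAM* at 68.0 CPM. *PTPRC* also stood at 248 CPM in the secretory-only barcodes, 84.0 CPM in those with both and 216 CPM in the keratin-only ones. The T cell list summed to 917 CPM in the whole cluster, and the part of blood cell RNA in its values was not tested.

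In the cluster as a whole the duct list summed to 5269 CPM, most of it *KRT19* at 2818 CPM and *KRT7* at 1617 CPM, and the acinar list to 1227 CPM, with *CLDN10* at 544 CPM. Other members stood lower. *KRT23* stood at 207 CPM, *FOXI1*, a factor of ionocytes, at 46.7 CPM, *ELF5* at 167 CPM and *LRRC26* at 163 CPM. *SCNN1A*, a subunit of the epithelial sodium channel of duct cells, had 21 UMIs in 7 barcodes. The basal keratin *KRT5* had 11 UMIs in 4 barcodes, and *MYLK*, a contractile gene of myoepithelial cells, had none, which allows up to 12.3 CPM by the exact interval.

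The T cell-like barcodes formed 9 clusters. The largest, with 394 barcodes, was led by *CD4*, *ATP4B* and *FABP3*. Others were led by *CD8B*, *CD8A* and *DAPL1* (199 barcodes), by *CTLA4*, *TNFRSF4* and *IL2RA*, genes of regulatory and activated T cells (197), by *RHEX* with *BLK* and *WC1* (226), by *CCL5* and *NKG7*, genes of cytotoxic cells (113), and by *PTI*, *HBG* and *CXCR6* (90). The smallest, with 39 barcodes and a median of 13706 UMIs, was led by *TOP2A*, *MKI67* and *CENPF*, which are genes of dividing cells. A cluster of 235 barcodes led by *LTBP1* and the mitochondrial gene *ND6* had medians of 14.0% mitochondrial UMIs and 2504 UMIs per barcode, and the part of RNA quality in this cluster was not tested. Another, of 171 barcodes, was led among named genes by *CTSW* and *MDK*.

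Since the mix of cells differed so much between libraries, T cells were also compared with T cells. The T-gated barcodes of the salivary gland (10444127 UMIs) were set against those of the 8 other libraries with at least 50 of them, from 61 barcodes in the duodenum to 2023 in the liver. By the same thresholds, 7 of 4453 genes were higher (0.157%) and 6 of 3162 lower (0.19%). Of the 7, only *CCR7*, *TDRD9* and *DAPL1* had a higher level in the T-gated barcodes than in the rest of the library, whereas *BPIFA2C* and 3 transcripts without a symbol were higher outside them. A single barcode held 67.9% of the T-gated UMIs of *BPIFA2C*, 76% of those of ENSBTAG00000025952 and 48.0% of those of ENSBTAG00000049572.

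*CCR7* stood at 530 CPM (516 to 544) in salivary gland T cells, and at 90.5 in those of the colon, 82.1 in the rectum, 69.3 in the cecum, 43.7 in the ileum, 13.8 in the liver, 4.44 in the abomasum, 2.05 in the jejunum and 0 in the duodenum. No other library came near it. *DAPL1*, a gene of naive T cells, stood at 189 CPM against at most 41.5 in the colon, and *TDRD9*, a helicase known from the germline, at 21.9 CPM against at most 0.138 in the liver.

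The next 3 genes were chosen after the whole-library values were seen, in which *LEF1* and *SATB1* already counted as higher, and most UMIs of the library were T-gated. None of them reached the threshold within T cells. *LEF1* stood at 128 CPM against 8.88 to 56.1 and *SATB1* at 177 CPM against 44.4 to 92.4. *S1PR1*, the receptor for leaving lymphoid tissue, stood at 71.7 CPM, close to the liver at 66.0 CPM and above the range of 3.80 to 27.5 in the others.

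*CCL5*, a chemokine, stood at 135 CPM in the salivary gland against 294 to 1628, *NKG7*, a granule protein, at 74.0 CPM against 243 to 958, and *CXCR6*, a receptor of tissue-resident T cells, at 30.2 CPM against 89.4 to 175. In all 3 the salivary gland lay below every other library. *GZMA*, a granule protease, had no UMI in salivary gland T cells and 3.75 to 116 CPM elsewhere, where 3 counts would be 0.287 CPM. The NK and cytotoxic list summed to 308 CPM against 834 to 2741. Of its 9 members that reached 20 CPM in the T cells of any library, 5 lay below all 8 other libraries and 0 above, where 18.2% of 6222 genes at that level lay below and 14.5% above. *PRF1*, perforin, at 37.9 CPM and *EOMES*, a factor of cytotoxic cells, at 43.4 CPM lay inside the ranges of 23.5 to 106 and 0 to 56.2.

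*HSPA1A* was also lowest within T cells, at 38.6 CPM (34.9 to 42.5) against 1375 to 13087. The same held for *HSPA6* at 0.287 CPM against 20.4 to 346 and for *ZFAND2A*, another heat shock gene, at 3.16 CPM against 39.9 to 1017. Outside the heat shock genes, *GADD45G* stood at 6.99 CPM against 52.1 to 217 and the chemokine *XCL1* at 8.04 CPM against 54.0 to 512. Of the 15 dissociation and stress genes, 6 lay below all 8 libraries in T cells and 0 above, beside the same 18.2% of all genes below. In the whole library the list ranked 10 of 11 at 6835 CPM, above the abomasum at 4570 CPM. *FOS*, an immediate early gene, stood at 559 CPM in T cells, inside the range of 189 to 1259. The libraries were dissociated differently, and the part of dissociation in these values was not tested.

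**Figure D4:**
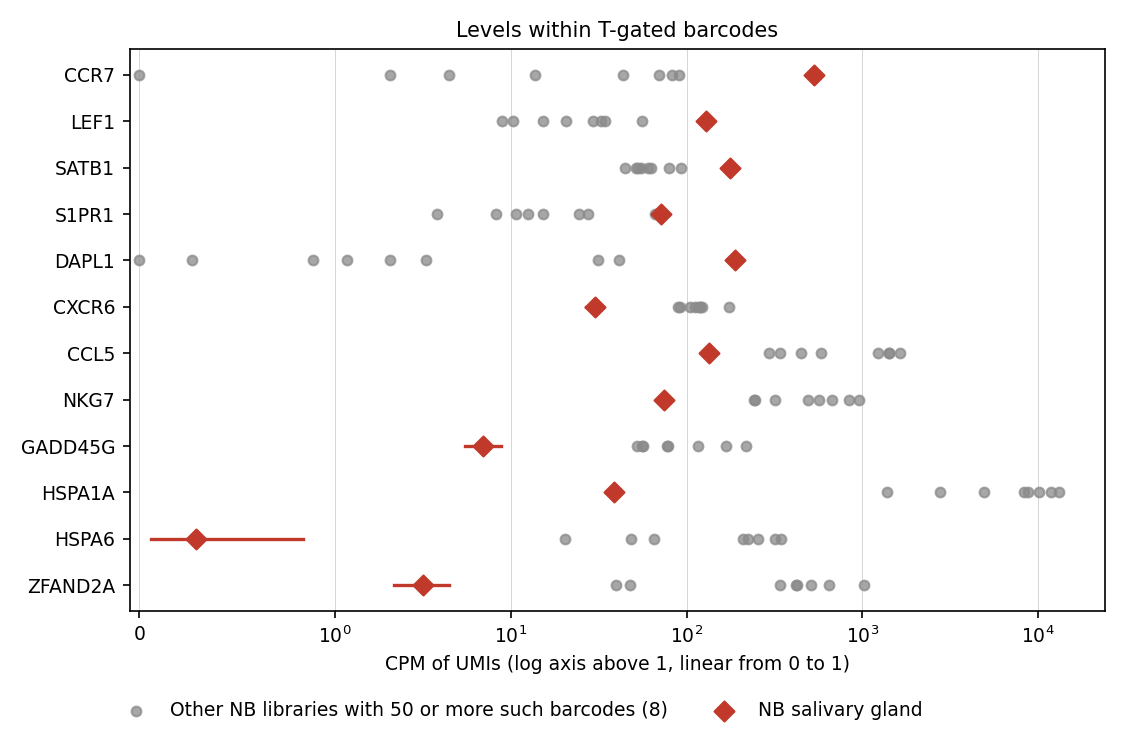
CPM of UMIs of 12 genes within T-gated barcodes (horizontal axis, logarithmic above 1 and linear from 0 to 1) in the NB salivary gland (red diamonds with exact Poisson 95% intervals) and in the 8 other NB libraries with at least 50 such barcodes (grey points). *CCR7* at 530 CPM lies right of all other libraries, and *NKG7* at 74.0 CPM and *HSPA1A* at 38.6 CPM lie left of them.

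B cells could be compared with the ileum (3363 barcodes) and the colon (868) only. Of 4488 genes 48 were higher in the 491 B-gated barcodes of the salivary gland (1.07%), and of 4523 genes 215 were lower (4.75%). *RGS13* and *MEF2B*, genes of germinal centre B cells, were at or near 0. *STMN1*, *CXCR5* and *MYC* were chosen here after their values were seen. *RGS13* had no UMI against 296 CPM in the ileum and 182 in the colon, which makes it at least 152-fold lower at a floor of 3 counts. *MEF2B* stood at 5.18 CPM against 415 and 327. *GP2*, a receptor for bacterial fimbriae, had no UMI either, against 301 and 259 CPM.

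The proliferation list summed to 278 CPM (257 to 299), against 4852 in the ileum and 3964 in the colon, and all 12 of its members lay below both, as did 54.9% of the 5514 genes that reached 20 CPM in the B cells of any of the 3 libraries. *MKI67* stood at 17.5 CPM against 480 and 435, and *STMN1*, a regulator of microtubules, at 158 CPM against 3472 and 2987.

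*TEP1*, a telomerase-associated protein, stood at 208 CPM against 7.03 in the ileum and 14.9 in the colon. *CR2*, a complement receptor and itself a gating marker, stood at 390 CPM against 108 in the ileum and 194 in the colon. *CXCR5*, the receptor for follicle entry, stood at 153 CPM against 44.2 and 74.7. *MYC*, a growth regulator, stood at 459 CPM (433 to 487) against 46.6 and 73.0. All 8 measured class II MHC genes lay above both libraries, 7 of them among the genes that reached 20 CPM, of which 36.6% did. The list summed to 11345 CPM against 4165 and 6307. The pan-B gene *MS4A1*, also a gating marker, was alike in the 3 libraries at 735, 735 and 715 CPM. *HSPA1A* stood at 21.1 CPM against 1987 and 1560. Of the 48 higher genes, 21 were no higher in B cells than in the rest of the salivary gland library.

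The 74 fibroblast-gated barcodes (541886 UMIs) were compared with 140 to 1933 such barcodes in 9 other libraries, the liver having too few. Of 5122 genes 49 were higher (0.957%) and of 3791 genes 43 were lower (1.13%). T cell genes summed to 275 CPM in them, against 17.4 to 63.0 in fibroblasts elsewhere, and 18 of the 49 higher genes, such as *CD52* and *LTB*, were no higher there than in the rest of the library. Their part in the other values was not tested. The higher genes named next stood at no more than 31.6 CPM in the rest of the library. Of all genes named for fibroblasts below, *IGF2*, *DLK1* and *GSC* were chosen after their values were seen.

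*COL1A1*, which is itself a gating marker, stood at 34487 CPM against 1263 to 7129. *IGFBP5*, a binding protein of insulin-like growth factors, stood at 3591 CPM (3433 to 3754) against 333 in the reticulum, 257 in the abomasum, 176 in the omasum and 14.6 to 108 in the others. *LPL*, lipoprotein lipase, stood at 1227 CPM against 3.43 to 114, *CAPN6* at 498 CPM against 0 to 34.8, *MYOC* at 345 CPM against 0 to 17.4 and *GPNMB* at 155 CPM against 0 to 4.21. *IGF2* at 5664 CPM and *DLK1* at 1528 CPM were the highest too, but did not reach the threshold, with the reticulum at 3872 and 1325 CPM. *FGF10*, a mesenchymal signal that drives branching of the gland, also fell short of the threshold at 103 CPM (78.1 to 134) against 2.98 to 52.2. *BMP4*, of the same list of gland growth and branching signals, lay below every other library.

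Among the 35 measured members of a list of craniofacial and positional transcription factors, 13 reached 20 CPM in any library, of which 4 lay above all other libraries and 4 below. Of 7825 genes at that level, 13.6% lay above and 31.1% below. The list as a whole was lowest in the salivary gland at 633 CPM against 850 to 1369. *PRRX1*, a factor of limb and craniofacial mesenchyme, stood at 257 CPM (216 to 303) against at most 54.7 in the reticulum, 31.5 in the omasum and 4.00 in the rest. *GSC* and *DLX5*, factors of the embryonic head, stood at 40.6 CPM each (25.4 to 61.5) against at most 2.49 CPM, and *DLX6* at 27.7 CPM against at most 1.05. *MSX1* stood at 49.8 CPM against at most 14.8, short of the threshold. They rest on 15 to 27 UMIs each, apart from *PRRX1* with 139.

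Single positional factors stood lower than in the gut. The share of list members below all other libraries was close to that of all genes. *TCF21* and *FOXF2* had no UMI in salivary gland fibroblasts, which allows up to 6.81 CPM by the exact interval, and stood at 70.5 to 547 and 29.8 to 275 CPM elsewhere. *FOXF1* stood at 27.7 CPM (15.5 to 45.7) against 66.2 to 342. *NKX2-3* had no UMI either, like the reticulum and the omasum, whereas it reached 76.2 to 203 CPM in the 6 intestinal libraries. The 39 *HOX* genes, which specify position along the body below the head, together summed to 22.1 CPM (11.4 to 38.7, from 12 UMIs). The *HOX* sum of the other 9 libraries ran from 263 CPM in the reticulum to 616 CPM in the colon.

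*CXCL14*, a chemokine, stood at 60.9 CPM (41.9 to 85.5) against 2228 to 8123, *BMP4* at 40.6 CPM against 383 to 1481, and *EDNRA*, an endothelin receptor, at 3.69 CPM against 90.4 to 290. *APOE* stood at 94.1 CPM against 1014 to 9352. In each of these the salivary gland lay below all 9 libraries. Of the 43 lower genes, 11 had no UMI in the 74 barcodes, and 32 stayed past the threshold when a floor of 3 counts was put in place of lower values.

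**Figure D5:**
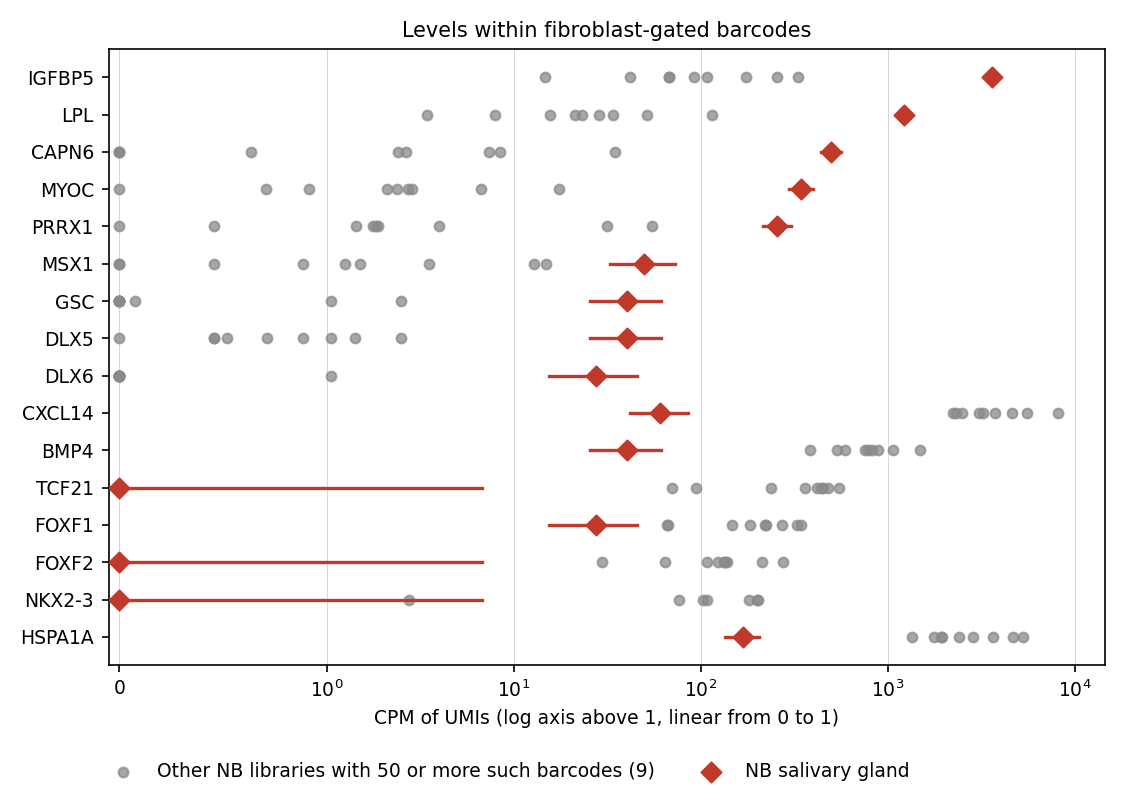
CPM of UMIs of 16 genes within fibroblast-gated barcodes (horizontal axis, logarithmic above 1 and linear from 0 to 1) in the NB salivary gland (red diamonds with exact Poisson 95% intervals) and in the 9 other NB libraries with at least 50 such barcodes (grey points). *IGFBP5* at 3591 CPM to *DLX6* at 27.7 CPM lie right of all other libraries, and *CXCL14* at 60.9 CPM, *BMP4* and *FOXF1* lie left of them.

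The 69 macrophage-gated barcodes held only 184320 UMIs, so 3 counts equal 16.3 CPM, and of the 31 genes counted as lower (of 3468, 0.894%) only 8 stayed past the threshold with that floor. Of 4809 genes 35 were higher (0.728%), of which 14 were no higher than in the rest of the library, *BPIFB1* among them. In most of the 35 a single barcode held at least 50% of the UMIs, and in *KRT17* and *VMO1* it held 100%. The count of 35 therefore does not show how many genes were higher across these macrophages. The largest share in 1 barcode was smaller for *CD5L*, at 22.6%. *CLEC4F*, a lectin of liver macrophages in rodents, stood at 206 CPM (146 to 283) against at most 8.91 in the ileum, with 34.2% of its UMIs in 1 barcode. *CD5L*, *TIMD4* and *SPIC* were chosen after their values were seen. *CD5L*, a scavenger protein secreted by macrophages, stood at 911 CPM (779 to 1060) against 168 in the liver and at most 10.6 elsewhere, and was highest in the salivary gland. By contrast *MARCO*, a scavenger receptor and itself a gating marker, stood at 1421 CPM (1255 to 1604). This was below the 2225 CPM of the liver and above the at most 9.06 CPM of the gut libraries. *TIMD4*, a receptor for dying cells, stood at 3190 CPM, between the ileum at 4938 and the colon at 2474. *SPIC*, a transcription factor of macrophages that recycle red cells, stood at 271 CPM (201 to 358) against at most 55.9 in the liver.

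Of the 15 dissociation and stress genes, 13 lay below all 8 libraries in macrophages and 0 above, where 26.1% of 6451 genes at 20 CPM in any library lay below and 25.5% above. *HSPA1A* had 2 UMIs in these macrophages, or 10.9 CPM (1.31 to 39.2), against 1981 to 16403. *CXCL3*, a neutrophil chemokine, had none, against 48.0 CPM in the liver and 328 to 1518 in the gut libraries. *GRO1*, another of that family, stood at 21.7 CPM (5.91 to 55.6) against 268 to 2518. Across the 4 lineages compared, *HSPA1A* was below every other library in each.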

How the data were processed

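Single-cell 3′ libraries (10x Genomics) were processed by the authors with Cell Ranger 3.1.0 against ARS-UCD1.2, and the deposited files hold raw UMI counts per gene and barcode, 27270 genes of which 7540 have no symbol. Groups follow the tissue and stage labels. Here barcodes with 500 to 4000 genes and under 50000 UMIs were summed per library. The study's limit of 40% mitochondrial UMIs and doublet removal were alternatives. Doublets were marked by Scrublet score (Scanpy 1.11.5) at 0.8% per 1000 barcodes. Clusters came from 2000 variable genes, 30 components and Leiden resolution 1 (leidenalg 0.10.2). Clusters were named X-like where enough barcodes were gated, most of them to 1 lineage, and leading genes did not go against it. Levels are CPM of UMIs, thresholds 20 CPM and a log2 ratio of 2 with a pseudocount of 5 CPM. Intervals used SciPy 1.17.1 at 95%. The floor is 3 counts, shares were compared after thinning to 1000 UMIs, and lineages needed 50 barcodes per library. The calling step was tested on simulated data. Named genes are the 20 with the largest and the 10 with the smallest ratio, 3 leading genes per cluster, 10 per lineage and the list members; all others were chosen after their values were seen. The members and lists were chosen with earlier results of these data known. Alternatives changed the pseudocount, minimum, scaling, limits, doublets, clustering and the library compared with; no lower limit on genes, markers per barcode and the lineages' lower genes were added after the data were seen. Some genes are not reported here. Coordinates and sequences were not used here.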

Additional observations from a re-analysis of the deposited data

Results flagged for a closer look

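The barcodes outside the limits on genes and UMIs were not used above, and those of the salivary gland library held *BPIFB1* or *DCXR* at levels far above those of the like barcodes of the other 10 libraries. In the 397 barcodes under 500 genes *BPIFB1* stood at 957 CPM, against at most 0.253 CPM in the like barcodes of any other NB library. These barcodes also had 300123 CPM of mitochondrial RNA, beside 57084 CPM in the kept ones, and 65 of them were macrophage-gated. In the 35 barcodes over 4000 genes or at 50000 UMIs or more, *DCXR* stood at 1351 CPM, against at most 0.435 CPM elsewhere. Among these were 6 epithelial-gated barcodes, with *KRT19* at 14684 CPM (13996 to 15396), *DCXR* at 9160 CPM, *KRT7* at 5515 CPM and *KRT15*, chosen after its values were seen, at 3937 CPM, and with *BPIFB1* at 34.3 CPM and no UMI of *BPIFA2C* or *AQP5*. They lie on the side of the keratin-only barcodes described above. The upper limit on genes thus left out 6 epithelial barcodes beside the 30 that were kept by the same gate.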

How the results depend on the processing

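No paired analysis was possible because each tissue has 1 library. Across the alternatives of the main results, 78 values stayed close to the one given and 36 moved. With a pseudocount of 1 CPM in place of 5, 35 genes counted as higher and 7 as lower. Against the second most extreme library these were 58 and 20. With no upper limit on genes or UMIs, 2 genes counted as lower. The T cell-like share was 58.5% with 15 components. The B cell-like share was 23.3% at resolution 0.5 and 22.3% without doublets. The epithelial-like share was 0% at resolution 0.5, where no cluster met the naming rule, and 2.95% without doublets. The blood endothelial-like share was 0% at resolutions 0.5 and 2. The unnamed share was 9.53% at resolution 0.5, 9.86% at resolution 2, 6.64% under 40% mitochondrial UMIs, 3.37% without doublets and 10.97% with 15 components. The secretory list summed to 1419 CPM with no upper limit, 1328 with no lower limit and 1224 by median-of-ratios size factors, which shifted the salivary gland by -0.64 to 0.23 on the log2 scale relative to the other libraries. Within lineages, a pseudocount of 1 CPM gave 11 genes as higher in T cells, 73 in B cells, 78 in fibroblasts and 64 in macrophages, and 47 as lower in macrophages. A minimum of 50 CPM gave 3 higher in T cells and 23 in macrophages, and 26 lower in fibroblasts and 11 in macrophages. Against the second most extreme library, 122 were higher in B cells, 78 in fibroblasts and 68 in macrophages, and 11 were lower in T cells, 323 in B cells, 89 in fibroblasts and 67 in macrophages. The cause of these changes was not tested beyond what each setting itself alters. Among 234 alternatives of single genes counted as higher or lower in the whole library, 223 kept the call, 11 lost it and 0 reversed. Limits are the single library per tissue and the 50 epithelial-like, 74 fibroblast-gated and 69 macrophage-gated barcodes. The part of free RNA in the secretory genes of other cell types was not tested.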

Other observations

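*SLC20A1*, a sodium-dependent phosphate transporter, stood at 108 CPM in the salivary gland and at most 98.5 CPM elsewhere. It was among the leading genes of the T cell-like cluster with 14.0% mitochondrial UMIs, and in the epithelial-like cluster it was at 50.0 CPM, below the 127 CPM of T cell-like barcodes. *SLC34A2*, another phosphate transporter, had 1 UMI. The list of saliva electrolyte and water transport summed to 303 CPM, ranking 10 of 11. *SPRY2*, a feedback inhibitor of growth factor signalling, was at its highest at 58.1 CPM, and it was among the 10 leading genes of the T cell-like clusters led by *CTSW* and by *CCL5*.

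The unnamed clusters were of several kinds. Genes named beyond their 3 leading ones were chosen after their values were seen. The one of 110 barcodes was led among named genes by *JCHAIN* and *MZB1*, genes of antibody-secreting cells, together with the cell cycle genes *PCLAF* and *UHRF1*, and 27 of its barcodes were marked as doublets. The one of 81 barcodes was led by *LYZ*, *CFD*, *CST3*, *F13A1* and *FCN1*. A group of 13 barcodes was led by *MPEG1*, *CTSS* and *PLD4* with *IRF8*, and 9 barcodes, 6 of them marked as doublets, were led by *RHEX* and *WC1*. In the neutrophil and monocyte-like cluster the leading genes were *S100A12*, *S100A9* and *S100A8*. The blood endothelial-like cluster of 30 barcodes also held *CCL21* at 1440 CPM and *MMRN1* at 988 CPM, genes of lymphatic vessels, and *ACTA2* at 784 CPM.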
